A study of Mus musculus with 32 samples.

Results

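The genes described here are 9 genes of red cell precursors and of haem synthesis: the transcription factors Klf1 and Gata1, the receptor gene Epor, the haem synthesis genes Alas2, Ppox and Fech, the mitochondrial transporter gene Abcb10, the surface protein gene Ermap and the beta globin gene Hbb-b1. Every probe set whose entry in the array's probe-to-gene table held one of these symbols was taken, which gave 16 of the 45037 probe sets used, for 9 of 18194 genes. Where a gene had several, the brightest on average over all arrays stands for it. The others are described beside it for the genotype difference in spleen and, for Abcb10, in thymus, and not elsewhere. In spleen 13 of the 16 passed the filter on low values, at least 1 for every gene, and in each of the other tissues 10 passed, for 7 genes. The probe set of Hbb-b1 carries 4 symbols in the table, those of Hbb-bt, Hbb-bs, Hbb-b2 and Hbb-b1, so its signal belongs to the adult beta globins together.

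The samples came from 4 female C57BL/6 mice carrying a CD30 ligand (CD30L) transgene and from 4 littermates without it, called transgenic and wild type here, all aged 12 weeks. CD30L is a member of the TNF family that binds CD30 on lymphocytes, and the titles name the construct CD2-CD30L, with a promoter meant to act in T cells. Spleen, peripheral lymph nodes, mesenteric lymph nodes and thymus of each mouse were each put on 1 Affymetrix array, which gave 32 arrays, from 5 µg of total RNA per tissue. The labels give no number of founder lines for the transgene, and no litter, cage or day that mice of the same number might share.

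Red cells form from progenitors that depend on erythropoietin, the hormone that signals through Epor. Gata1 and Klf1 are DNA-binding proteins that switch on the red cell programme, including the globins and the enzymes of haem synthesis. Haem is built in steps that begin in the mitochondrion, where Alas2 makes the first precursor, pass through the cytosol, and end in the mitochondrion again, where Ppox and Fech perform the last steps. In adult mice the bone marrow makes most red cells, and the red pulp of the spleen holds further precursors and can expand them, whereas lymph nodes and thymus are not sites of red cell formation.

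The letters AGATAA and TGATAA are among those that Gata1 binds, and only these are called GATA motifs here. Klf1 binds sites that contain CCNCNCCC, where N is any base. The 250 bases before the gene start were searched for these letters on both strands, with overlapping matches counted, in the RefSeq promoter table of GRCm38.p6. Other forms of the sites were not searched. Of the 9 genes, 7 had their promoter searched (Klf1, Gata1, Epor, Alas2, Ermap, Ppox and Abcb10). Hbb-b1 had no promoter under its own symbol. The promoter of Fech was left out of the search, so the counts say nothing about it. A GATA motif was present in 4 of the 7 (Klf1, Epor, Alas2 and Ermap), against 16.6% of 32851 promoters, and CCNCNCCC in 3 (Gata1, Epor and Alas2), against 45.9%. Both kinds were present in Epor and Alas2, against 4.52% of the 32851 promoters. The stretches of 110 bases that hold the GATA motif of these 4 genes are shown. They are printed 5′ to 3′ on the strand of the gene, with the motifs in capitals (TTATCA and TTATCT are the GATA motifs read on the other strand, and the runs of C or G hold KLF motifs).
Klf1, chr8:84901872-84901981, plus strand: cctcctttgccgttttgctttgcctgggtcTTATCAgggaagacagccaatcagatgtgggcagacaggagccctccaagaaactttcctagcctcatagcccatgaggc
Ermap, chr4:119189996-119190105, minus strand: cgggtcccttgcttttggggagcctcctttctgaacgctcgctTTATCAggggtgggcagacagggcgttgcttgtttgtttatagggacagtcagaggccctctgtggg
Epor, chr9:21963591-21963700, minus strand: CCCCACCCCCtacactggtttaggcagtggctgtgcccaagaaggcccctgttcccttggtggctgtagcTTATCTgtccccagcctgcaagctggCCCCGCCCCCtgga
Alas2, chrX:150547307-150547416, plus strand: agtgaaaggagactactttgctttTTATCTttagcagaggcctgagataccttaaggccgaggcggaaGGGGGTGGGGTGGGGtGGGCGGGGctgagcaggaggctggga

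The GATA motif began 80 bases before the start in Klf1, 67 in Ermap, 54 in Epor and 86 in Alas2. In Epor it stood between KLF motifs at 124, 122, 28 and 26 bases, and in Alas2 the KLF motifs lay nearer to the start, at 42, 40, 35 and 26 bases. No match to either was found in these windows of Ppox and Abcb10, and no GATA motif in that of Gata1. How closely these genes followed the others across the spleens is described below, and a bearing of the motifs on it was not tested. Of the beta globins that share the Hbb-b1 probe set, Hbb-bs held AGATAA at 210 bases and CCNCNCCC at 93. Hbb-bt held CCNCNCCC alone, at 107 bases. A match describes letters only and shows no binding.

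The deposited intensities were shifted by 16, put on the log2 scale and quantile normalized within each tissue, and the brighter probe sets of a tissue, 27022 with an average over its 40th percentile, were tested with limma. By lymph node venule and lymphocyte precursor genes, the tissues carried their labels. Averaged per array and on each tissue's own scale, the lymph node venule genes Glycam1 and Madcam1 stood between 10.72 and 11.94 in the lymph nodes and at 6.75 or lower in spleen and thymus. The lymphocyte precursor list stood between 8.46 and 8.99 in thymus and at 6.47 or lower elsewhere. The exocrine pancreas list averaged 12.61, 12.55 and 13.23 in mesenteric nodes of transgenic mice 1 and 3 and wild type mouse 2. In the other mesenteric nodes it averaged 5.18 or lower. The skeletal muscle list averaged 10.22 and 8.54 in peripheral nodes of wild type mice 1 and 3 and 7.6 in transgenic mouse 1. In the other peripheral nodes it averaged 5.61 or lower. The part of these tissues in the erythroid values was not tested. Tnfsf8, the gene for CD30L, did not pass limma's threshold between genotypes in any tissue (log2 difference 0.07 ± 0.10 in spleen, SE, n = 4 per genotype, and adjusted p between 0.893 and 0.984 over the 4 tissues). Whether the transgene holds the part that this probe set reads is not stated in the labels, so this checks neither the transgene nor the labels. One division cut across the genotypes in spleen and thymus. Actb signal at the 3′ end over that at the 5′ end, which is higher in more degraded RNA, was 2.83 to 3.58 in spleens of mice 1 and 2, whatever their genotype, but only 1.65 to 1.85 in spleens of mice 3 and 4. In thymus it was 1.68 to 2.25 in mice 1 and 2 and 1.34 to 1.43 in mice 3 and 4, and in the lymph nodes the ranges of the pairs overlapped. These pairs of mice are therefore also given apart. This division was found in the data, and the labels do not give it.

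In wild type mice the 9 genes were highest on average in spleen. On 1 scale for all 32 arrays, every one of them was higher in spleen than in each of the other tissues within the same mice by limma (9 of 9 against peripheral lymph node, where 15.4% of all tested probe sets were called higher in spleen, 9 of 9 against mesenteric lymph node, where 14.3% were, and 9 of 9 against thymus, where 23.1% were). The median log2 differences over the 9 genes were 3.03, 3.14 and 3.94. Klf1 and Alas2 were under the filter in each of the other tissues and entered this test only through their spleen values. Their calls are therefore no independent support.

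Alas2, the erythroid form of the enzyme that starts haem synthesis, had the widest gap of the 9. It averaged 12.26 (log2 intensity) in wild type spleen, against 4.98 and 5.25 in peripheral and mesenteric lymph node and 4.79 in thymus. That is 155-fold above peripheral lymph node (log2 difference 7.27 ± 0.25, SE, n = 4 mice). As 1 of the 4 lymph node arrays and 2 of the 4 thymus arrays lay at the floor of 4.00, these folds understate the gap. Klf1, the erythroid Krüppel-like factor, stood 5.83 ± 0.25 above peripheral lymph node, 5.70 ± 0.30 above mesenteric lymph node and 6.59 ± 0.18 above thymus (log2 differences). Ermap, which encodes a membrane protein of red cells that carries the Scianna blood group in humans, stood 5.66 ± 0.29, 5.49 ± 0.27 and 5.91 ± 0.24 above the same 3 tissues. Outside the spleen no wild type array of these 3 genes exceeded 6.74.

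Gata1, Epor and the general haem genes kept some signal elsewhere. Gata1 differed by 3.45 ± 0.24 between wild type spleen and peripheral lymph node and Epor by 2.57 ± 0.17 (log2 differences). Fech, ferrochelatase, which inserts iron to complete haem, differed by 2.90 ± 0.18, and Abcb10, an exporter of the inner mitochondrial membrane that is needed for haem synthesis in red cell precursors, by 3.03 ± 0.22. Ppox, protoporphyrinogen oxidase, differed least among the haem genes, by 2.26 ± 0.20 from peripheral lymph node, 2.02 ± 0.25 from mesenteric lymph node and 1.73 ± 0.22 from thymus.

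Below the spleen the order of the wild type tissues differed from gene to gene. Thymus was lowest for all genes except Ppox and Hbb-b1. The ranges of the 4 mice did not overlap at any step for Gata1, with means of 6.73 and 6.49 in peripheral and mesenteric lymph node and 6.25 in thymus, or for Epor, with 7.57 in mesenteric lymph node, 7.18 in peripheral lymph node and 6.40 in thymus. For Klf1, Alas2, Ermap, Hbb-b1 and Ppox the ranges of neighbouring tissues below the spleen overlapped, and for Fech and Abcb10 those of the lymph nodes overlapped each other.

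Hbb-b1 had the smallest steps between tissues. It averaged 13.06 in wild type spleen, with a mean of 12.02 in thymus, 11.99 in peripheral and 11.54 in mesenteric lymph node (log2 intensity), which is 2.10-fold higher in spleen than in peripheral lymph node (limma adjusted p = 0.0116). The spleen and thymus ranges touched, at 12.97 for the lowest spleen and 13.05 for the highest thymus. Globin RNA is also carried by young red cells of the blood, and the share of blood in these samples was not measured. In whole tissue, fewer cells of a type and less RNA per cell cannot be told apart, here and in every result below.

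In spleen, 8 of the 9 genes were lower on average in transgenic than in wild type mice, with Hbb-b1 as the exception. None passed limma's threshold of an adjusted p under 0.05 over all probe sets (0 of 9, where 0.0111% of all tested probe sets were called). The median log2 difference over the 9 genes was -0.85, against 0.01 over all tested probe sets. By unadjusted p under 0.05, 6 of the 9 were lower in transgenic spleens, where 4.34% of all tested probe sets were. In 2 genes, Klf1 and Epor, all 4 transgenic spleens lay below all 4 wild type spleens, where 2.08% of all tested probe sets did so (4.88% lay apart in either direction).

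Klf1 measured 10.39, 10.66, 9.95 and 8.98 in the spleens of transgenic mice 1 to 4, against 10.68, 10.80, 11.03 and 11.78 in those of wild type mice 1 to 4 (log2 intensity). The groups did not overlap, and mouse 4 was the lowest transgenic and the highest wild type animal. The log2 difference was -1.08 ± 0.38 (SE, n = 4 per genotype, limma, unadjusted p = 0.0189, adjusted p = 0.563), or 2.11-fold higher in wild type.

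Gata1 measured 9.64, 10.45, 9.06 and 8.45 in transgenic spleens, against 9.92, 10.03, 10.25 and 10.78 in wild type spleens. Transgenic mouse 2 lay above 3 of the 4 wild type mice, so the groups overlapped. On average the genotypes differed by -0.85 ± 0.39 (log2, limma adjusted p = 0.597).

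Epor, the erythropoietin receptor gene, measured 9.16, 9.38, 8.97 and 8.54 in transgenic spleens, against 9.68, 9.44, 9.82 and 10.29 in wild type spleens. The groups lay apart, and mouse 2 of each genotype brought them nearest to each other. Between them the difference was -0.80 ± 0.23 (log2), with an unadjusted p of 0.0067 and an adjusted p of 0.54 by limma.

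Alas2 measured 11.75, 11.80, 12.12 and 11.25 in transgenic spleens, against 11.65, 12.32, 12.52 and 12.77 in wild type spleens. Wild type mouse 1 fell within the transgenic range, and the other wild type spleens lay above it. With -0.58 ± 0.26 (log2, limma adjusted p = 0.585), Alas2 had the smallest difference of the 8 genes that were lower.

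Ppox measured 9.54, 9.51, 8.93 and 8.65 in transgenic spleens, against 9.54, 9.96, 10.20 and 10.81 in wild type spleens. Mouse 1 of both genotypes was at the same level, and the remaining transgenic spleens lay below all wild type spleens. Ppox differed by -0.97 ± 0.30 (log2, unadjusted p = 0.01, adjusted p = 0.54 by limma). A dimmer Ppox probe set gave -0.44 ± 0.28, and the remaining one was under the filter.

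Fech was read by 3 bright probe sets. The representative measured 11.22, 11.34, 11.46 and 10.62 in transgenic spleens, against 11.23, 12.03, 12.07 and 12.59 in wild type spleens. Only wild type mouse 1 lay within the transgenic range. The log2 difference was -0.82 ± 0.29 (limma adjusted p = 0.563), and the other bright probe sets gave -0.87 ± 0.34 and -0.91 ± 0.41. The remaining Fech probe set was at the floor on all 32 arrays.

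Abcb10 measured 9.60, 10.36, 9.78 and 9.01 in transgenic spleens, against 10.06, 10.56, 10.60 and 11.28 in wild type spleens. Transgenic mouse 2 lay above wild type mouse 1, and the other transgenic spleens lay below all wild type spleens. The log2 difference was -0.94 ± 0.32 (limma adjusted p = 0.563), a second probe set gave -0.89 ± 0.43, and the remaining one was under the filter. In Ermap the transgenic spleens measured 11.17, 11.58, 10.70 and 9.84, against 11.32, 11.66, 11.69 and 12.19 in wild type spleens. Transgenic mouse 2 lay above wild type mouse 1, so that the groups overlapped (log2 difference -0.89 ± 0.35, limma adjusted p = 0.565).

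Hbb-b1 measured 13.10, 13.24, 13.08 and 13.20 in transgenic spleens, against 13.03, 13.13, 13.22 and 13.11 in wild type spleens. All 8 spleens lay between 13.03 and 13.24, and the log2 difference was 0.03 ± 0.10 (limma adjusted p = 0.951). Between 33 and 81 of the 45037 probe sets were brighter on a spleen array, so the probe set was near the top of the scale. Whether it could have shown a difference there was not tested.

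**Figure D1:**
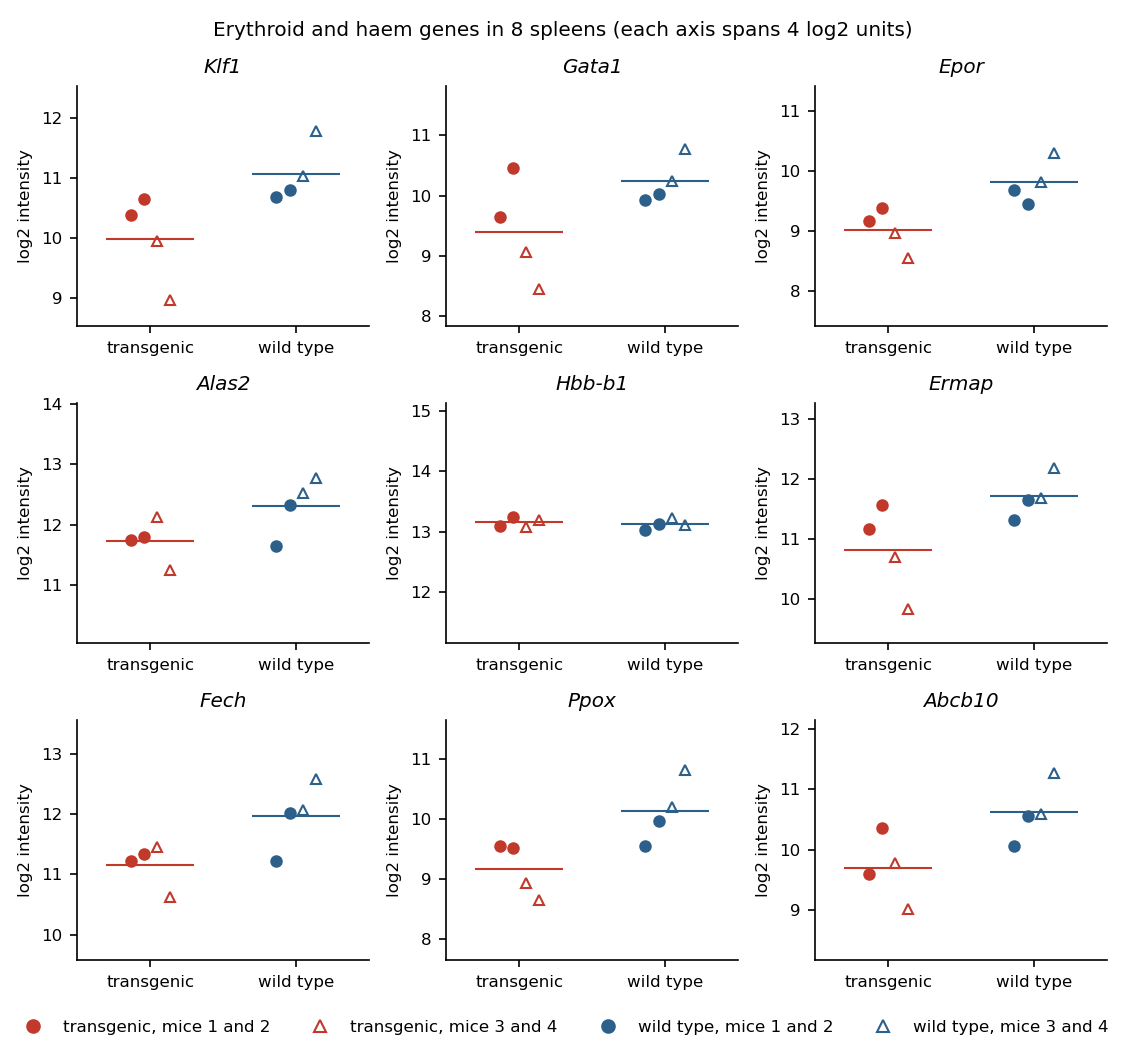
Spleen level of each gene's representative probe set (y axis, log2 intensity, 4 log2 units per panel) in transgenic mice (left, red) and wild type mice (right, blue), 1 point per mouse and a line at the mean of 4; filled circles are mice 1 and 2 and open triangles mice 3 and 4. In 8 panels the triangles lie further apart between genotypes than the circles, and in Hbb-b1 all points lie between 13.03 and 13.24.

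In each of the 8 lower genes the genotypes differed more within mice 3 and 4 than within mice 1 and 2. Within mice 3 and 4 the median log2 difference over the 9 genes was -1.55, and 7 of the 9 were below -1, where 3.13% of all tested probe sets were. Within mice 1 and 2 the median was -0.21, and 0 of the 9 were below -1, where 0.326% of all tested probe sets were. The limit of -1 was chosen after the values were seen.

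Among the 9 genes the largest difference within mice 3 and 4 was that of Klf1, -1.94, which is 3.84-fold higher in wild type, and within mice 1 and 2 it was -0.21. Gata1 differed by -1.76 within mice 3 and 4 and by 0.07, in the other direction, within mice 1 and 2. Ppox differed by -1.71 and -0.22 in the same pairs, Ermap by -1.67 and -0.11, and Abcb10 by -1.55 and -0.33. Epor, Fech and Alas2 differed by -1.30, -1.29 and -0.96 within mice 3 and 4, and by -0.29, -0.35 and -0.21 within mice 1 and 2. Hbb-b1 differed by -0.03 within mice 3 and 4 and by 0.09 within mice 1 and 2.

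**Figure D2:**
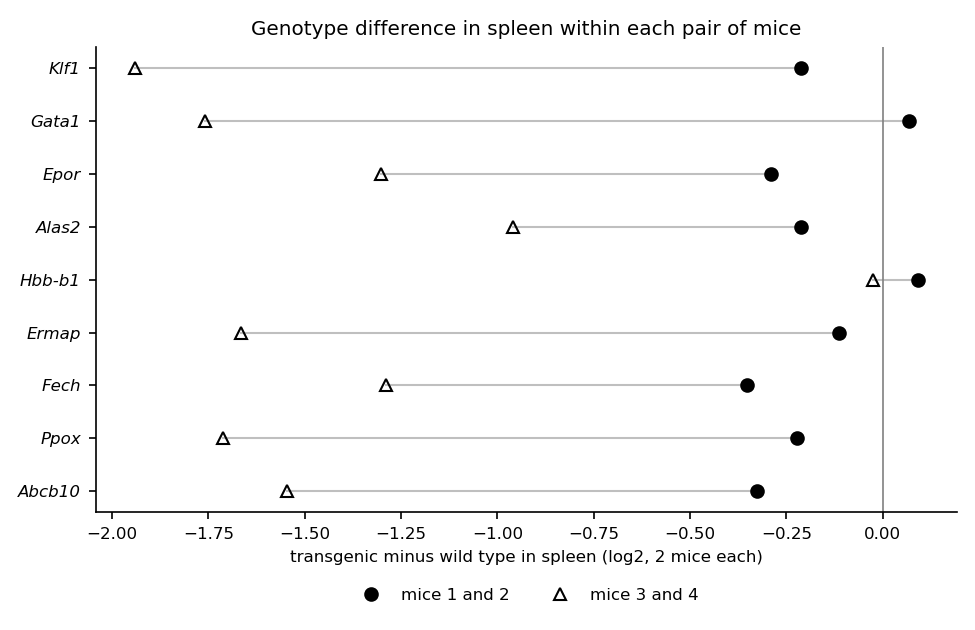
Transgenic minus wild type difference in spleen (x axis, log2) for each gene (y axis), computed within mice 1 and 2 (filled circles) and within mice 3 and 4 (open triangles), with 2 mice per genotype in each. Of the 9 triangles 7 lie below -1, and all circles lie between -0.35 and 0.09.

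With 2 mice per genotype in each pair, no test of the difference between the pairs was made. The pairs also differed in RNA integrity, as given above, and within a pair the ratios of the genotypes overlapped (Actb ratio of 2.83 and 3.57 in transgenic and 3.25 and 3.58 in wild type mice 1 and 2, against 1.68 and 1.85 in transgenic and 1.69 and 1.65 in wild type mice 3 and 4). With that ratio as a covariate the median over the 9 genes was -0.84, and 0 genes passed. The mean of the 8 genes without Hbb-b1 was 10.31, 10.63, 10.12 and 9.42 in transgenic spleens, against 10.51, 10.85, 11.02 and 11.56 in wild type spleens (log2). The spleens of mouse 4 were the extremes of both genotypes, lowest in transgenic and highest in wild type. The spleen of wild type mouse 4 also stood apart in some genes of other cells. Rag1, which cuts antigen receptor genes in lymphocyte precursors, measured 4.34 to 5.42 in transgenic spleens and 4.33 to 5.21 in those of wild type mice 1 to 3, but 9.36 in that of wild type mouse 4 (under the filter). Dntt, which adds bases to the same genes, measured 4.15 to 6.32 in transgenic spleens and 4.49 to 6.03 in those of wild type mice 1 to 3, but 8.49 in that of wild type mouse 4. Both belong to the list of 7 lymphocyte precursor genes, whose other genes are not given, so a rise of the whole list is not shown. The list mean was 6.47 in that spleen, against 5.25 to 5.82 in transgenic spleens and 5.3 to 5.72 in those of wild type mice 1 to 3. The granulocyte and megakaryocyte list means of the spleen of wild type mouse 4, 8.03 and 8.29, were the lowest of the 8 spleens, where transgenic spleens had 8.63 to 9.0 and 8.55 to 8.88. The part of these cells in the erythroid values was not tested. Without transgenic mouse 4 the median over the 9 genes was -0.64, and without wild type mouse 4 it was -0.67, still negative. The number of genes whose groups lay apart was 5 without transgenic mouse 2 (where 9.64% of all tested probe sets lay apart) and 7 without wild type mouse 1 (where 10.1% did). It was 2 or 3 without any other single mouse (where 6.1% to 9.11% did).

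The 8 genes moved together from spleen to spleen, though not all equally closely. Over the 8 spleens the 28 pairs among them had Pearson correlations between 0.69 and 0.99 (median 0.92), and between 0.51 and 0.98 after the genotype means were removed. With the means removed, Alas2 correlated with Fech by 0.98 but with Gata1 by 0.51 and with Epor by 0.60. The 8 pairs with Hbb-b1 had correlations between -0.14 and 0.08. These arrays share their RNA and their normalization, and the values are a description. Over the 8 spleens, the genes that followed the mean of the 9 most closely among 12721 genes were Oip5os1, Spire1, Sptb, Kel, Nags, Alad, Btnl10 and Ctse, with correlations between 0.98 and 0.99. Sptb encodes the beta chain of spectrin in the red cell skeleton, Kel a blood group protein, and Alad the second enzyme of haem synthesis. Over all 32 arrays the 8 closest were Tspo2, Gfi1b, Apol8, Gp9, Trim10, Cldn13, Ctse and Rhag, also with correlations between 0.98 and 0.99. Such a correlation over 4 tissues mostly follows the gap between spleen and the other tissues.

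The rest of the red cell programme in spleen was read from 6 lists of erythroid regulators, globins, membrane proteins, haem synthesis, iron handling and late maturation. Of the 74 listed genes 63 were measured and 57 passed the filter in spleen. None of the 57 passed limma's threshold. On average 54 were lower and 3 higher in transgenic spleens, and 28 were lower by unadjusted p under 0.05 (where 4.34% of all tested probe sets were) and 0 higher (where 4.22% were). All 4 transgenic spleens lay below all 4 wild type spleens in 5 genes, against 2.08% of all tested probe sets, and above in 0. Within mice 3 and 4, 32 of the 57 had a difference below -1, against 3.13% of all tested probe sets, and within mice 1 and 2 there were 0, against 0.326%.

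The 13 tested genes of the red cell membrane and skeleton were all lower on average, with a median log2 difference of -0.87, which was -1.59 within mice 3 and 4 and -0.11 within mice 1 and 2. Aqp1, the water channel, differed by -0.87 ± 0.29, Kel by -1.12 ± 0.41, Rhag, a membrane protein of the Rh complex, by -0.97 ± 0.36 and Sptb by -0.94 ± 0.38 (limma adjusted p between 0.557 and 0.565). The 10 tested genes of haem synthesis and mitochondrial import were also all lower on average, with a median of -0.57. Uros and Cpox, enzymes of the middle of the pathway, differed by -0.91 ± 0.32 and -0.56 ± 0.22, and Alad by -0.80 ± 0.29. Tmem14c, a mitochondrial protein needed to move a haem precursor, differed by -0.66 ± 0.23, with all 4 transgenic spleens (10.91, 11.00, 10.81 and 10.44) below all wild type spleens (11.01, 11.10, 11.72 and 11.95). Alas1, the form of the first enzyme used outside red cells, differed by -0.11 ± 0.15. All these adjusted p were 0.563 or higher.

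Of the 11 erythroid regulators 10 were lower on average, with a median of -0.54. Gfi1b, a repressor needed for red cells and platelets, measured 8.64, 9.18, 7.83 and 6.87 in transgenic spleens, against 9.11, 9.13, 9.36 and 10.03 in wild type spleens. Transgenic mouse 2 lay above both wild type mice 1 and 2, and the log2 difference was -1.28 ± 0.46 (limma adjusted p = 0.563). Tal1, a partner of Gata1 in DNA binding complexes, differed by -0.85 ± 0.30, Zfpm1, the Gata1 cofactor FOG-1, by -0.54 ± 0.20, and Hemgn by -0.71 ± 0.31. The 10 genes of late maturation were all lower on average, with a median of -0.66. Pklr, the red cell pyruvate kinase, measured 7.95, 8.16, 7.45 and 7.05 in transgenic spleens, against 8.18, 8.63, 8.50 and 8.97 in wild type spleens, and its groups lay apart (-0.92 ± 0.26, unadjusted p = 0.00675, adjusted p = 0.54). Tspo2 differed by -1.10 ± 0.43, Car1, a carbonic anhydrase, by -0.78 ± 0.26, and Bpgm, which makes the regulator of oxygen release from haemoglobin, by -0.54 ± 0.19.

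Iron handling and erythropoietin signalling were closer between genotypes. Of the 11 iron and haem handling genes 9 were lower on average, with a median of -0.40. Steap3 and Slc11a2, which bring iron out of the endosome, differed by -0.67 ± 0.24 and -0.57 ± 0.24, Tfr2 by -0.63 ± 0.24, and Blvrb, a biliverdin reductase, by -0.42 ± 0.18 with its groups apart (adjusted p between 0.563 and 0.578). The genes with a large role in macrophages, Slc40a1, the iron exporter, and Hmox1, which breaks down haem, differed by -0.19 ± 0.14 and -0.40 ± 0.23. Of the 9 genes of erythropoietin and Kit signalling 5 were lower and 4 higher, with a median of -0.13, and 0.06 within mice 3 and 4. Kit differed by -0.15 ± 0.14 and Jak2 by -0.14 ± 0.13, and Socs3, a feedback inhibitor of cytokine signals, was 0.44 ± 0.16 higher (adjusted p = 0.563). The difference between these medians and that of the 9 genes was not tested.

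Of the other globins read by a probe set with a single symbol, Hba-x and Hba-a1, on a dim probe set, passed the filter in spleen. Hba-x, an embryonic alpha-like globin, differed by -0.80 ± 0.29 (adjusted p = 0.563). A further 3 alpha globin probe sets, which were bright and passed the filter, carry both Hba-a1 and Hba-a2, and they were singled out after their values were seen. Their log2 differences in spleen were -0.17 ± 0.12, 0.07 ± 0.09 and -0.05 ± 0.11 (adjusted p of 0.73, 0.886 and 0.928), and all 3 lay between 12.63 and 13.17 in every spleen. A dim probe set of Hbb-b2 under the filter measured 5.98, 6.52, 5.90 and 6.97 in transgenic spleens, against 6.01, 4.45, 4.00 and 4.00 in wild type spleens.

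**Figure D3:**
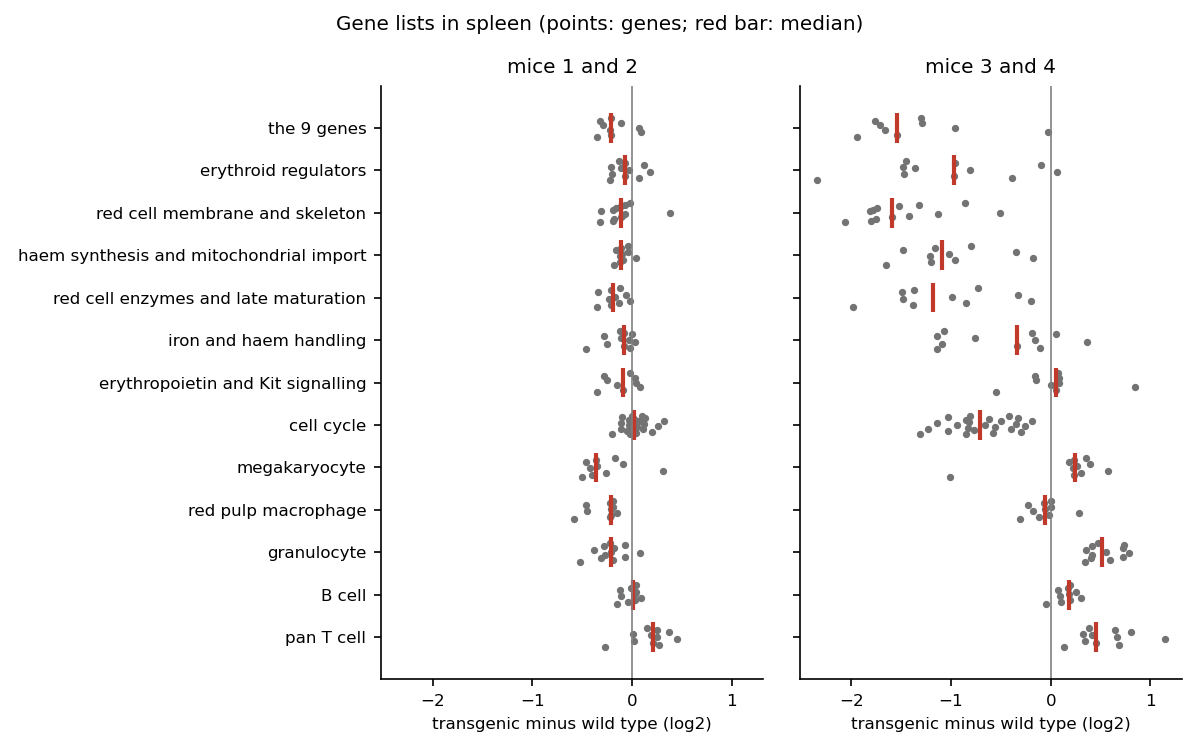
Transgenic minus wild type difference in spleen (x axes, log2) of the 9 genes and of the genes of 12 other lists (rows, 1 point per gene that passed the filter, red bar at the median), within mice 1 and 2 (left panel) and within mice 3 and 4 (right panel). In mice 3 and 4 the medians of the cell cycle list (-0.71) and of the erythroid regulators, membrane, haem, maturation and iron lists lie below 0 and those of the pan T cell (0.46) and granulocyte (0.52) lists above it, and in mice 1 and 2 every plotted median lies between -0.36 and 0.21.

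Markers of other cells moved in both directions. The pan T cell list was higher in transgenic spleens in 11 of 11 genes, with a median log2 difference of 0.30, and its mean per array was 9.16, 9.27, 9.34 and 9.50 in transgenic spleens, against 9.04, 9.04, 8.91 and 8.84 in wild type spleens. All 4 transgenic means lay above all 4 wild type means, and the list's median was 0.46 within mice 3 and 4 and 0.21 within mice 1 and 2. Cd3d, a chain of the T cell receptor complex, differed by 0.57 ± 0.10 (limma adjusted p = 0.413). The 12 granulocyte genes had a median of 0.14 (0.52 within mice 3 and 4 and -0.21 within mice 1 and 2), the 10 B cell genes one of 0.08 and the 10 red pulp macrophage genes one of -0.15. The 10 megakaryocyte genes had a median of 0.00, and among them Gp9, a platelet receptor chain, measured 7.36, 7.15, 7.19 and 6.47 in transgenic spleens, against 7.54, 7.68, 7.93 and 7.76 in wild type spleens (-0.68 ± 0.19, adjusted p = 0.54). Madcam1, an adhesion molecule of vessels through which lymphocytes leave the blood, measured 9.09, 9.0, 9.50 and 9.49 in transgenic spleens, against 8.46, 8.60, 8.28 and 8.31 in wild type spleens. All 4 transgenic spleens lay above all wild type spleens (0.86 ± 0.15, unadjusted p = 0.000337, adjusted p = 0.379 by limma). The exocrine pancreas list, with 2 tested genes, had a median of -0.73, and its mean per array was 4.69, 4.87, 5.21 and 4.9 in transgenic spleens, against 6.93, 5.06, 5.24 and 6.21 in wild type spleens. Wild type mice 1 and 4 stood above the other 6 spleens.

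Genes of the cell cycle were also lower in transgenic spleens of mice 3 and 4. All 24 of its tested genes were lower on average in transgenic spleens, with a median of -0.37, which was -0.71 within mice 3 and 4 and 0.02 within mice 1 and 2. Its mean per array lay between 9.63 and 10.16 in transgenic spleens and between 9.88 and 10.63 in wild type spleens, with wild type mouse 4 highest. Aurka, a kinase of the mitotic spindle, differed by -0.46 ± 0.18, Ube2c, which drives exit from mitosis, by -0.66 ± 0.27, and Rrm2, which makes DNA building blocks, by -0.48 ± 0.21 (limma adjusted p of 0.564, 0.565 and 0.578). None of the genes in any of these lists passed limma's threshold in spleen. The part of these other cell types in the values of the 9 genes was not tested.

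Where the spread was estimated once over all 32 arrays, with the mouse as a random block, 2 of the 9 genes passed in spleen, where 0.829% of all tested probe sets did. These were Ppox (-0.97, adjusted p = 0.0207) and Fech (-0.83, adjusted p = 0.0362). That fit assumes that the spleens vary between mice as much as the other tissues do, which did not hold for these genes. The SD of Ppox was 0.44 in transgenic and 0.53 in wild type spleens, against 0.10 to 0.28 in the other tissues. For Fech it was 0.38 and 0.56 in spleen, against 0.11 to 0.21 elsewhere. The spread used was therefore too small for their spleen values, and these passes are no firm calls.

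Outside the spleen none of the 9 genes passed limma's threshold between genotypes. In peripheral lymph node 7 genes were tested (0 called, where 0.037% of all tested probe sets were), with Klf1 and Alas2 under the filter. The median log2 difference was -0.02. The groups lay apart in Gata1 alone, where 5.35% of all tested probe sets lay apart. It measured 6.75, 6.68, 6.49 and 6.31 in transgenic nodes, against 6.79, 6.76, 6.78 and 6.85 in wild type nodes. The wild type values were close together and the transgenic values spread downwards from them (-0.24 ± 0.11, adjusted p = 0.622).

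In mesenteric lymph node 7 genes were tested (0 called, as of all tested probe sets, where 0% were), and 0 lay apart, where 3.94% of all tested probe sets did. All 7 were lower on average in transgenic nodes, with a median of -0.09. The largest difference was that of Hbb-b1. It measured 10.69, 10.00, 10.41 and 9.97 in transgenic nodes, against 10.57, 11.11, 11.94 and 12.26 in wild type nodes. Only wild type mouse 1 fell within the transgenic range (-1.20 ± 0.36, unadjusted p = 0.0102, adjusted p = 0.811). Ppox differed by -0.36 ± 0.14 (adjusted p = 0.972).

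In thymus 7 genes were tested (0 called, where 0.0037% of all tested probe sets were), and 0 lay apart, where 4.61% did. The median was 0.02, with 0.08 within mice 1 and 2 and -0.19 within mice 3 and 4, and the largest difference was that of Abcb10, which measured 6.54, 5.80, 6.73 and 5.17 in transgenic thymus, against 6.45, 6.67, 6.58 and 6.81 in wild type thymus. Transgenic mice 2 and 4 were low and the others lay within or near the wild type range (-0.57 ± 0.31, adjusted p = 0.747). A second Abcb10 probe set that passed the filter did not show this. It measured 5.52, 6.29, 5.79 and 6.37 in transgenic thymus, against 6.07, 6.07, 6.15 and 6.14 in wild type thymus. There transgenic mice 2 and 4 were the highest, and the difference was -0.11 ± 0.19 (log2, limma adjusted p = 0.91).

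Outside the spleen Hbb-b1 varied widely between mice. It measured 11.61, 11.17, 12.27 and 11.41 in transgenic peripheral lymph nodes, against 11.25, 12.01, 12.72 and 12.54 in wild type nodes (-0.52 ± 0.35, adjusted p = 0.737). In thymus it measured 11.79, 11.82, 11.65 and 11.59 in transgenic mice, against 11.55, 10.96, 12.09 and 12.81 in wild type mice (-0.14 ± 0.34, adjusted p = 0.944). Wild type mice 3 and 4 were the highest of the 8 mice in each of the 3 tissues. The brightest alpha globin probe set was also highest in wild type mice 3 and 4 in mesenteric lymph node, with 11.00, 10.15, 10.62 and 10.34 in transgenic nodes, against 10.74, 11.46, 12.11 and 12.41 in wild type nodes.

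Alas2, under the filter in these tissues, was at or near the floor in most of these arrays. In mesenteric lymph node it measured 4.00, 4.00, 4.00 and 4.86 in transgenic mice, against 4.13, 5.06, 5.33 and 5.95 in wild type mice. In thymus it measured 4.68, 4.00, 4.00 and 4.00 in transgenic mice, against 4.00, 4.00, 4.47 and 6.73 in wild type mice. In both, wild type mouse 4 was highest, as it was for Hbb-b1. In peripheral lymph node, where the transgenic values were 4.00, 4.67, 5.99 and 4.00 and the wild type values 4.00, 4.93, 5.92 and 5.12, mouse 3 was highest in both genotypes. Klf1 in thymus measured 5.74, 5.33, 5.44 and 4.43 in transgenic mice, against 4.00, 4.00, 4.08 and 5.70 in wild type mice, also under the filter.

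**Figure D4:**
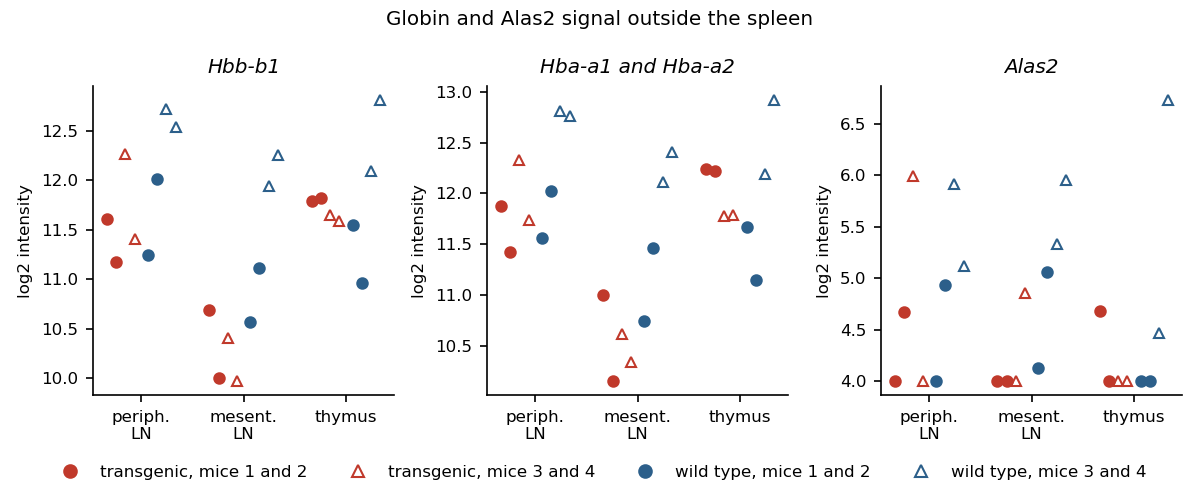
Levels (y axes, log2 intensity, normalized within each tissue) of Hbb-b1, of the brightest probe set shared by Hba-a1 and Hba-a2, and of Alas2 in peripheral lymph node, mesenteric lymph node and thymus (x axes; LN is lymph node), with transgenic mice left in red and wild type mice right in blue, filled circles for mice 1 and 2 and open triangles for mice 3 and 4. Wild type mice 3 and 4 are the highest points of Hbb-b1 in every tissue, with 12.72 and 12.54 in peripheral nodes, 11.94 and 12.26 in mesenteric nodes and 12.09 and 12.81 in thymus.

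Whether the genotype difference in spleen departed from that in another tissue was tested on each mouse's own difference between tissues. None of the 9 genes passed against peripheral lymph node (where 0% of all tested probe sets did), against mesenteric lymph node (0%) or against thymus (where 0.00684% did). The median differences of effect, spleen minus the other tissue, were -0.94, -0.77 and -0.88 (log2). Without transgenic mouse 4 they were -0.69, -0.48 and -0.63, and without wild type mouse 4 they were -0.71, -0.55 and -0.57. Klf1 and Alas2 were under the filter in the other 3 tissues, with part of their values at the floor, and entered this test through spleen alone, so their differences are not given. Over the 7 genes that passed in both tissues the medians were again -0.94, -0.77 and -0.88. Among these 7 the smallest p against peripheral lymph node was that of Epor (-0.94 ± 0.25, n = 4 per genotype, limma, unadjusted p = 0.00497, adjusted p = 0.53), and against thymus that of Ermap (-0.91 ± 0.34, unadjusted p = 0.0266, adjusted p = 0.583). Hbb-b1 ran the other way against mesenteric lymph node (1.23 ± 0.37, adjusted p = 0.709), since it was lower in transgenic mesenteric lymph node and level in spleen.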

How the data were processed

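The authors deposited 1 table of linear intensity values for 45101 probe sets on 32 arrays. RNA was purified on columns and biotin-labelled, per the labels' protocols. Algorithm, software and scaling were not given in the sources used here. On each array 14.9% to 18.4% of values were negative, so some signal had been subtracted, and the trimmed mean intensity ran from 106 to 272.

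From the deposited intensity values, 64 control probe sets were left out, values below 0 became 0, and log2 was taken of the value plus 16, which gives a floor of 4 and understates changes of dim genes. The 8 arrays of a tissue were quantile normalized, or all 32 together where tissues were set against each other. The 27022 probe sets per tissue whose mean exceeded the 40th percentile were tested for transgenic against wild type (limma 3.58.1, R 4.3.3), with Benjamini-Hochberg adjustment over all of them and a threshold of 0.05. Differences between tissues were tested on each mouse's own difference. Of the 45037 probe sets, 34945 had 1 symbol, 932 several and 9160 none in the table used.

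The genes, the lists and the division of mice 1 and 2 from mice 3 and 4 were chosen with earlier results of these data known. Of 193 list entries 172 were measured. By the naming rule, up to 4 genes per list with the smallest spleen p were named. Alas1, Kit, Jak2, Slc40a1, Hmox1, Hbb-b2, Rag1 and the shared alpha globin probe sets were named outside it, after their values were seen. Alternatives were other pseudocounts, normalizations and filters, blocks, weights, an intensity trend, 1 fit over 32 arrays, each pair of mice alone and leaving out each mouse. The limma fits were tested on simulated data. Precision is limited by the number of mice. The labels do not say that the mice are from separate litters, so p-values measure the spread between these mice.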

Additional observations from a re-analysis of the deposited data

Results flagged for a closer look

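Of 72 groups of 4 arrays examined (9 genes in 4 tissues and 2 genotypes), 4 held a sample far from the other 3, and chance alone gives about 1 in 20. Transgenic mouse 4 had an Alas2 level of 4.86 (log2 intensity) in mesenteric lymph node, where the other transgenic mice were at the floor of 4.00. Transgenic mouse 1 had an Alas2 level of 4.68 in thymus, where the other transgenic mice were at 4.00. Both values lie close to the floor, and Alas2 was under the filter on low values in these tissues. In thymus, wild type mouse 4 had a Klf1 level of 5.70, where the other wild type mice stood between 4.00 and 4.08, and an Epor level of 5.80, below the 6.54 to 6.64 of the others. The same thymus was highest of the 8 in Hbb-b1 and Alas2. The spleen of wild type mouse 4, highest of the 8 spleens in 8 of the 9 genes, was not singled out by this measure in any of them.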

How the results depend on the processing

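No gene of the 9 changed the direction of a called difference, and none passed limma's threshold in spleen under any alternative except 1 fit over all 32 arrays, where 2 did. Of the values per gene 1251 kept direction and side of the threshold, counting sign changes of uncalled differences smaller than 1 SE, and 2 reversed: Gata1 in spleen within mice 1 and 2 (0.068) and Fech in peripheral lymph node as deposited (0.059). Causes were not tested.

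Probe sets called in spleen (3 in the values reported) numbered 5 as deposited, 5 with array weights, 224 in the fit over 32 arrays, and 0 with a pseudocount of 1, with the block for the 2 pairs of mice, with the Actb ratio and within either pair alone. In peripheral lymph node (10) they were 112 as deposited, 6 without a filter, 4 with the block of pairs, 18 with a trend, 0 within either pair and 107 over 32 arrays. In mesenteric lymph node (0) they were 3 without a filter, 1 within mice 3 and 4 and 2 over 32 arrays. In thymus (1) they were 0, 5, 4, 3, 5, 0, 8 and 58 with a pseudocount of 1, one of 64, as deposited, common median, no filter, the 60th percentile, a trend and 32 arrays, and 0 within either pair. Differences of effect called were 1 against either lymph node with a pseudocount of 1, and 4 against thymus (2) with one of 64.

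Members lying apart in spleen (2 of 9) were 6 as deposited and 8 within mice 3 and 4, where 9.14% and 52.8% of all tested probe sets lay apart. In peripheral lymph node (1 of 7) they were 2 with a common median (3.89%), 0 at the 60th percentile (5.74%), 3 within mice 1 and 2 (40.3%) and 2 within mice 3 and 4 (35%), and within either pair 2 in mesenteric lymph node (0; 28% and 37.9%) and 4 in thymus (0; 41.4% in both). The median over members was -0.21 in spleen within mice 1 and 2 and -1.55 within mice 3 and 4, 0.19 in peripheral lymph node and 0.12 in thymus as deposited, -0.14 in thymus at the 60th percentile and -0.19 within mice 3 and 4, and 3.29 for wild type spleen minus thymus with a pseudocount of 64 (3.94 otherwise).

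Whether the mouse number pairs the genotypes is not known, and so few arrays cannot decide it. Same-numbered spleens correlated by 0.16, 0.29, 0.32 and 0.02, and 2 of the 4 correlated best with their own number. With mouse number as a replicate block, the calls were 0 in spleen, 2 in peripheral lymph node, 0 in thymus and 0 for spleen against thymus, and 0 members passed in any tissue.

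Leaving out 1 mouse gave 0 to 2 calls in spleen, 0 to 11 in peripheral lymph node and 0 to 2 in thymus. Members apart were 2 to 7 in spleen (where 6.1% to 10.1% of all tested probe sets lay apart) and 1 to 2 in peripheral lymph node (7.66% to 10.8%). They were 0 to 1 in mesenteric lymph node (5.63% to 7.88%) and 0 to 1 in thymus (6.2% to 9.45%). Leaving out 1 mouse also gave a thymus median of -0.097 to 0.084, 0 to 1 and 0 to 3 differences of effect against peripheral lymph node and thymus, and 5306 to 5972 calls (7980) for wild type spleen against mesenteric lymph node.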

Other observations

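Outside the spleen the wider red cell lists held genes that were lower and genes that were higher in transgenic mice. Of 46 tested genes of the 6 erythroid, haem and iron lists in peripheral lymph node, 29 were lower and 17 higher on average in transgenic mice, and 1 was lower and 2 higher by an unadjusted limma p under 0.05, where 4.15% of all tested probe sets were lower and 4.21% higher. In mesenteric lymph node 22 of 45 were lower and 23 higher, and in thymus 18 of 45 were lower and 27 higher. None passed the adjusted threshold in any tissue. In peripheral lymph node 8 of 8 tested late maturation genes were lower. The mean of the haem synthesis list lay between 9.01 and 9.04 in transgenic and between 9.07 and 9.11 in wild type peripheral lymph nodes. That of the erythroid regulators lay between 7.69 and 7.79 in transgenic and between 7.62 and 7.64 in wild type peripheral lymph nodes. These means lay apart in opposite directions, but the list medians were only -0.06 and 0.02 (log2). Gene by gene, 0 of 10 tested haem synthesis genes and 1 of 9 tested regulators lay apart, where 5.35% of all tested probe sets did. The mean of the red cell membrane list lay between 5.84 and 5.91 in transgenic and between 5.86 and 5.98 in wild type peripheral lymph nodes (log2 intensity), and between 5.41 and 5.86 in transgenic and between 5.60 and 5.86 in wild type thymus.

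The cell cycle list, which was lower on average in transgenic spleens, was the other way round in the lymph nodes. Its mean lay between 8.68 and 9.35 in transgenic and between 8.04 and 8.23 in wild type peripheral lymph nodes, and between 9.02 and 9.31 in transgenic and between 8.58 and 8.80 in wild type mesenteric lymph nodes, so the groups lay apart in both. In spleen its ranges overlapped. Whether this list's difference departs between tissues was not tested.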
